A study of Mus musculus with 6 samples.

Results

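The genes described here encode WNT ligands, their receptors, their secreted inhibitors and the nuclear proteins that read the signal, as measured on 6 Agilent 1-colour arrays of mouse embryonic fibroblasts (MEFs), primary connective-tissue cells taken from embryos. Members were chosen by name, with earlier results of these data known. They were every Wnt, Fzd, Sfrp and Dkk gene with a number, and Axin2, Lef1, Tcf7, Lrp5, Lrp6 and Wif1. This gave 43 genes with 61 probes, of 27376 gene names and 41174 probes on the array. By role they are 19 ligands, 12 receptors, 9 secreted inhibitors and 3 nuclear effectors or feedback targets. All cultures carried virus for a mix the labels call SKO and do not spell out, and were grown in serum medium with LIF. They differed in the added construct, which was Gadd45a, its mutant G39A (a negative mutant, per the series' design text) or Flag, the control. The source labels give day 8, while the treatment protocol gives 6 days of culture, and the labels do not settle which time holds. Each construct has an array numbered replicate 2 and one numbered replicate 1. No label says that the numbers stand for separate cultures, and the p-values below therefore reflect array-to-array spread that may be purely technical.

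WNT proteins are secreted lipid-modified ligands that bind Frizzled receptors together with the coreceptors LRP5 and LRP6. In the canonical branch this keeps β-catenin from being degraded, and β-catenin then joins the TCF and LEF proteins on DNA to switch on targets such as Axin2, which feeds back on the pathway. Secreted Frizzled-related proteins and WIF1 bind the ligands, while Dickkopf proteins such as DKK1 and DKK2 act on the coreceptors, and the pathway is known to influence both fibroblast identity and the maintenance of pluripotent cells.

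The promoters of 29 of the 43 genes were found in a RefSeq table (assembly GRCm38.p6), which holds 300 bases for each start site, 250 before and 50 after it. They were searched on both strands for the TCF and LEF letters, which were CTTTGAA or its variant CTTTGAT, and also CTTTGTA or its variant CTTTGTT. These letters occurred in 16.9% of all 32851 full windows and in 6 of the 36 windows of the members. The 6 belonged to Dkk1, Fzd7, Lef1, Wnt11, Wnt3 and Wnt5b. The 4 shown first below are of measured genes whose replicate or group values are described further on. Wnt7a, with no match, is shown because it had the largest fitted replicate difference of the members. That size rests on replicate 2 signals not well above background. Letters are 5′ to 3′ in the direction of the gene, and capitals mark the matches, of which those of Fzd7 (AACAAAG) and Lef1 (TACAAAG) read as the motif on the opposite strand.
Lef1 promoter, chr3:131156044-131156343, plus strand: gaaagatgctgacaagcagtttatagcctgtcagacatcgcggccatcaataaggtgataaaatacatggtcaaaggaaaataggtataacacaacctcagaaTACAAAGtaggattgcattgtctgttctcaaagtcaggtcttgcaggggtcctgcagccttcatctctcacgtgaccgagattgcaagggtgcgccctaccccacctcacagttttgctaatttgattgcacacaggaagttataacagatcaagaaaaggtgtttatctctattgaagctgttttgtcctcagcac
Wnt5b promoter, chr6:119449337-119449636, minus strand: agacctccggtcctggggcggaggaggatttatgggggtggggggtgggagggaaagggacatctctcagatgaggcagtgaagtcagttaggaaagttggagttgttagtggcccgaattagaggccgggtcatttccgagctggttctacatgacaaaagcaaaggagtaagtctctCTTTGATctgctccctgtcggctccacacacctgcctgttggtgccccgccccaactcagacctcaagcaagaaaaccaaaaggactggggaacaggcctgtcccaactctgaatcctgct
Fzd7 promoter, chr1:59481897-59482196, plus strand: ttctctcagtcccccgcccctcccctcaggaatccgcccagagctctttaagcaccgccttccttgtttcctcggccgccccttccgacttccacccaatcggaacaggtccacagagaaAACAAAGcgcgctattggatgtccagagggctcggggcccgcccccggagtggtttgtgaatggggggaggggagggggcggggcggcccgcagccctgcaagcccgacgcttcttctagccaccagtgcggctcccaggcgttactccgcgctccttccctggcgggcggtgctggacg
Dkk1 promoter, chr19:30549447-30549746, minus strand: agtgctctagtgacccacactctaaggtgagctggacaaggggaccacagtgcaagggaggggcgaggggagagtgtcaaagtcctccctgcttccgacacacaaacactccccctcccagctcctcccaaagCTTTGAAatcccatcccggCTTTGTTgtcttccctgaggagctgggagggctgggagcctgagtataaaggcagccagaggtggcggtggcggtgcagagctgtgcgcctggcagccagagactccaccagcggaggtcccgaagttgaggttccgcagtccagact
Wnt7a promoter, chr6:91411304-91411603, minus strand: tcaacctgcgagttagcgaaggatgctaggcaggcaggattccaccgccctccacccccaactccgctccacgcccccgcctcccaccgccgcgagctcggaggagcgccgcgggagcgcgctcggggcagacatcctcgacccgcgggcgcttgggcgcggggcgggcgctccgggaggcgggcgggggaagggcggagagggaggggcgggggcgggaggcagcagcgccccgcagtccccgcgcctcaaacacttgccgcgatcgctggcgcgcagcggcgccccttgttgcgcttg
In the Dkk1 window the matches began 117 and 98 bases before the start site, in Fzd7 130, in Lef1 147 and in Wnt5b 71. The Lef1 window is that of 1 of the 4 start sites in the table, and the Wnt5b window that of 1 of 3. A match is a description of letters and no evidence of binding.

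Several facts of the arrays bear on what follows. Between 57.0% and 62.9% of spots were well above background on each array, and none was saturated. All 3 replicate 2 arrays lay on 1 slide, while the Gadd45a and Flag replicate 1 arrays shared another and the G39A replicate 1 array lay on a slide of its own. Replicate number and slide therefore cannot be told apart. SKO usually stands for Sox2, Klf4 and Oct4 in this field, and Oct4 is the protein of Pou5f1. The Pou5f1 probe gave a scaled signal of 4.64, 4.64 and 3.67 in Gadd45a, G39A and Flag on the replicate 2 arrays, where it was not well above background, and of 4978, 5524 and 3849 on the replicate 1 arrays. The Sox2 probe gave 16.4, 15.6 and 22.5 in replicate 2, where it was well above background on the Flag array alone, and 8.28, 10.9 and 8.39 in replicate 1, where it was not on any array. The Klf4 probe was bright on all 6 arrays, at 19126, 20771 and 19635 in replicate 2 and 14935, 13932 and 16275 in replicate 1. All groups below are named as labelled. The Gadd45a probe gave 2059, 2264 and 2373 in replicate 2 and 541, 1211 and 1016 in replicate 1, groups in the same order, and was not brighter on the arrays labelled Gadd45a. Whether these probes read the introduced copies was not tested.

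Scaled signal means the processed intensity with every array brought to the same 75th percentile, 819.638. In every list of 3 values the order is Gadd45a, G39A and Flag. A difference is replicate 2 minus replicate 1 on the log2 scale with its standard error (SE, n = 3 arrays per number), tested with limma within groups and adjusted by Benjamini-Hochberg over 26481 probes. A probe was called when its adjusted p fell under 0.05. Probes bind with different strength, so signals are compared between arrays and not between genes.

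The arrays of replicate 2 and replicate 1 carried many WNT genes at different levels in every group. Most of the measured genes were shared, since 27 of the 43 had a probe well above background on all 6 arrays. The ligand Wnt10a and the Dickkopf protein gene Dkk3 were more than an order of magnitude brighter on the replicate 2 arrays, and the ligand Wnt7a was detected on the replicate 1 arrays alone. Lef1 and Tcf7, the nuclear effectors, were dimmer on all replicate 2 arrays, while Sfrp1, Sfrp2 and Sfrp4 were brighter. Of the 61 probes, 46 (33 genes) could be tested, since they were well above background on at least 2 of the 6 arrays. Of these, 20 rose and 17 fell in replicate 2, together 80.4%, against 52.9% called over all probes tested (29.3% higher, 23.7% lower). The arrays of the numbers did not overlap for 37 of the 46, against 66.1% of all probes. A probe that entered through the arrays of 1 number had to differ, which holds for 5 of the 46 (Wnt7a, Wnt7b, Wnt10b and the dimmer probes of Wnt6 and Tcf7), and their values are given as a description. Fzd9 and Fzd10 were well above background on only 1 array of their dimmer number, through which they would not have passed. Among the 37 probes well above background on all 6 arrays, 31 were called, against 58.0% of all such probes. The median difference was 0.21 over the 46 and 0.09 over all probes tested. Why the numbers differ is not given by the labels.

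**Figure D1:**
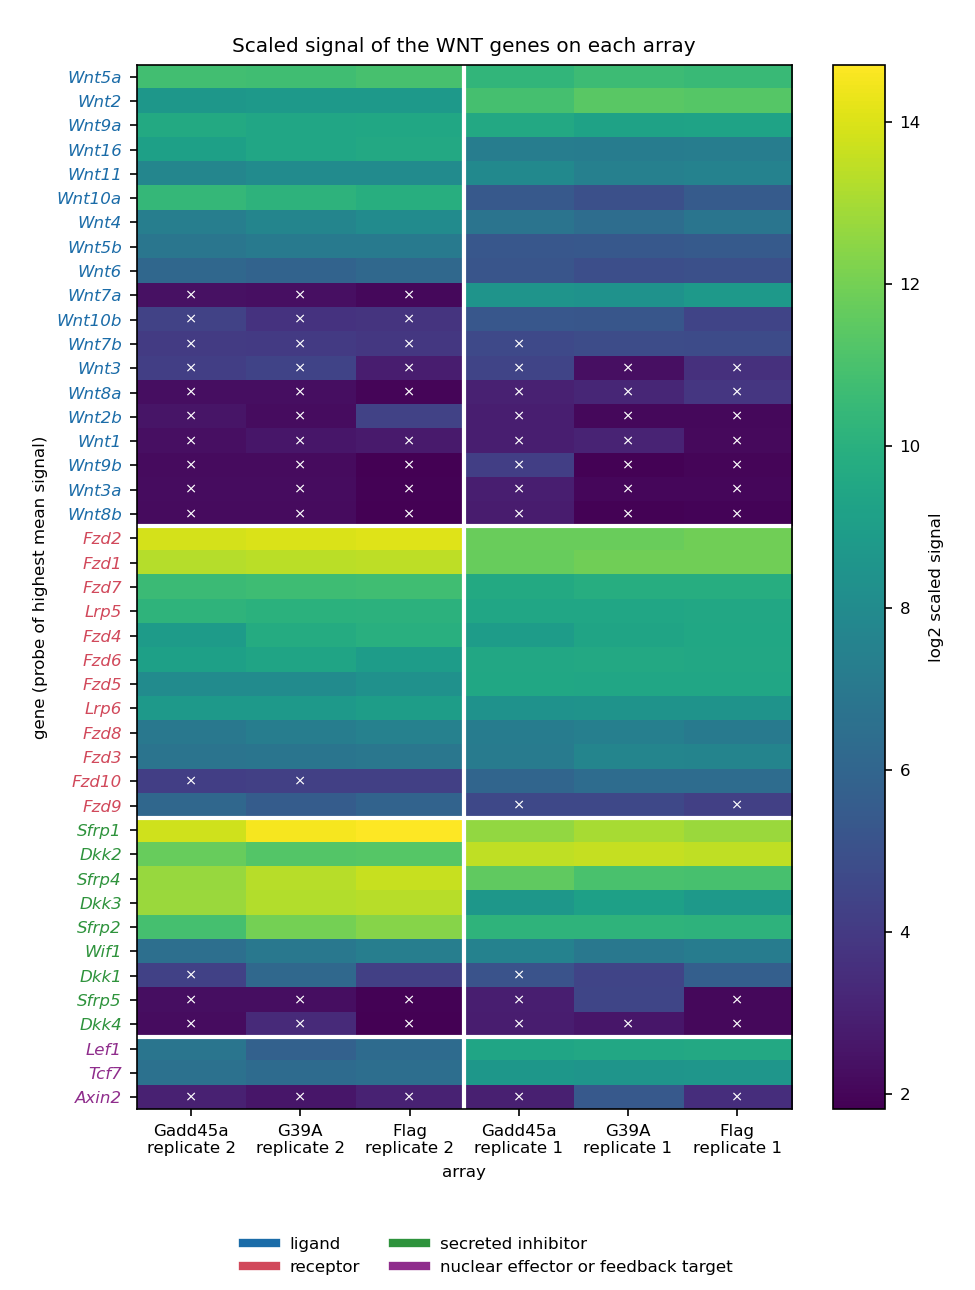
Log2 scaled signal (colour) of the 43 genes on each of the 6 arrays, 1 row per gene with its probe of highest mean signal, grouped by role; a cross marks a probe not well above background on that array. The columns of replicate 2 (left) and replicate 1 (right) differ in every role, for example in Wnt7a, Wnt10a, Dkk3 and Lef1.

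Markers of other cells moved with the replicate numbers as well, and their part in the WNT results was not tested. All 12 fibroblast genes were well above background on all 6 arrays, and 17 of their 28 probes were higher in replicate 2 and 0 lower. Beside each count of marker probes stand 29.3% of all probes higher and 23.7% lower. Their summed signal ranged from 1049530 to 1089970 on the replicate 2 arrays and from 643921 to 720037 on the replicate 1 arrays. Smooth muscle and myofibroblast probes were higher in 11 of 11, with sums of 410772 to 448797 in replicate 2 and 73628 to 82117 in replicate 1. Epithelial probes were lower in 7 of 9, with sums of 1818 to 3143 in replicate 2 and 5954 to 6256 in replicate 1. Cdh1, Epcam, Ocln, Cldn4 and Esrp1 were not well above background on any replicate 2 array, and Cldn4 and Esrp1 on no replicate 1 array either. The lower probes of Cdh1, Epcam and Ocln thus passed the filter through replicate 1 alone. Pluripotency probes were lower in 4 of 5 (sums of 273 to 294 in replicate 2 and 4327 to 5935 in replicate 1). These 4 probes, of Pou5f1, Nanog and Zfp42, all passed the filter through replicate 1 alone. Pou5f1 by itself gave 4978, 5524 and 3849 of the replicate 1 sums. Macrophage and leukocyte probes were higher in 7 and lower in 3 of 12 (5851 to 9517 in replicate 2 and 2155 to 2297 in replicate 1), and Ptprc, the defining leukocyte gene, was not well above background on any array. Endothelial probes were higher in 1 and lower in 2 of 4, and Pecam1 and Cdh5 were not well above background anywhere. Cartilage and bone probes were higher in 4 and lower in 4 of 12. A probe each of Pdgfra, Acta2, Emr1, Lyz2, Fcer1g and Sox9 passed the filter through replicate 2 alone, and an Itgam probe through replicate 1 alone. Marker probes that entered through a single number had to differ, and their part in the counts is a description. In bulk RNA, fewer cells of a type and less RNA per cell cannot be told apart.

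Among the ligands, 7 of 14 tested probes were higher in replicate 2 and 4 were lower, against 29.3% and 23.7% of all probes. They covered 6 and 4 of the 12 genes tested. Of the lower ones, Wnt7a, Wnt7b and Wnt10b passed the filter through replicate 1 alone, and only Wnt2 was well above background in both numbers. Of the higher ones, the dimmer Wnt6 probe passed through replicate 2 alone. Wnt7a, a ligand known for dorsal patterning of the limb, stood at 5.19, 5.02 and 4.32 on the replicate 2 arrays, all not well above background, against 354, 335 and 432 on the replicate 1 arrays (probe on chromosome 6, 91314653 to 91314712, mm9). It was at least 17.9-fold lower in replicate 2, with a difference in processed signal of -6.27 ± 0.15. Its probe passed the filter through the replicate 1 arrays alone; with no filter on dim probes the limma adjusted p was 0.00144. That bound sets the bright arrays against the lowest signal that counts as well above background, so the fitted difference itself rests partly on dim signals. Wnt10a, a ligand of tooth and skin appendage development, moved the other way. It gave 1341, 1128 and 950.3 on the replicate 2 arrays against 43.4, 30.9 and 45.2 on the replicate 1 arrays (chromosome 1, 74850633 to 74850692, mm9), and was 28.7-fold higher in replicate 2 (4.84 ± 0.18, limma adjusted p = 0.000349). With the normexp background correction, whose offset shrinks differences of dim probes, that difference was 3.54. Wnt2, known from placenta and lung, was well above background on every array and lower in replicate 2, at 401, 439.5 and 429.5 against 1914, 2764 and 2532 on the replicate 1 arrays (-2.49 ± 0.11, adjusted p = 0.000498). In none of these did any array of one number reach the other number's range.

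Smaller rises were found for Wnt16, a ligand active in bone, which gave 559, 692 and 773 in replicate 2 and 154, 148 and 158 in replicate 1 (2.13 ± 0.12, limma adjusted p = 0.000778). Wnt5b, a ligand of the β-catenin-independent branch known from cartilage, gave 118, 138 and 137 in replicate 2 and 39.6, 41.0 and 44.1 in replicate 1 (1.65 ± 0.09, adjusted p = 0.000621), and its promoter is among those printed above. Its second probe was not well above background on any array. Wnt6, an ectodermal ligand, gave 68.5, 60.3 and 72.5 in replicate 2 and 37.6, 30.3 and 31.5 in replicate 1 (1.02 ± 0.10), and its second probe was also higher (at least 1.74-fold, since it was not well above background in replicate 1). Wnt4, needed for kidney and female reproductive tract development, gave 161, 206 and 258 in replicate 2 and 111, 86.8 and 114 in replicate 1 (0.99 ± 0.18, adjusted p = 0.0135). With normexp the differences were 0.91 for Wnt5b and 0.51 and 0.45 for the Wnt6 probes. Of these 4 genes Wnt4 alone lost its call when arrays were left out, without either Flag or either G39A array (adjusted p up to 0.0694).

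Wnt10b and Wnt7b were dim ligands, dimmer in replicate 2, whose probes passed the filter through replicate 1 arrays alone. Wnt10b, which favours bone over fat formation, gave 20.3, 12.8 and 13.4 on the replicate 2 arrays, none well above background, and 39.6, 37.8 and 21.8 on the replicate 1 arrays, at least 1.54-fold lower in replicate 2. Wnt7b, a lung and placental ligand, gave 16.6, 16.2 and 14.8 in replicate 2 and 25.2, 27.8 and 27.1 in replicate 1, where the Gadd45a array was not well above background. The mean of all 3 replicate 1 arrays was at least 1.29-fold higher than replicate 2. With no filter on dim probes the limma adjusted p was 0.0354 for Wnt10b and 0.0212 for Wnt7b. With normexp the differences shrank to -0.21 for Wnt10b and -0.04 for Wnt7b, and neither was called (adjusted p = 0.0680 and 0.682). Under the same correction the Wnt7a difference was -2.68.

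Other ligands differed little. Wnt5a, the main ligand of the β-catenin-independent branch in mesenchyme, gave 1793, 1725 and 1991 in replicate 2 and 1285, 1619.7 and 1515 in replicate 1 for its brighter probe (0.32 ± 0.11, limma adjusted p = 0.0782). It was called with normexp (adjusted p = 0.0359) and among probes well above background on all 6 arrays (0.0449). Its second probe differed by almost the same amount and was called (0.33 ± 0.08, adjusted p = 0.0366), a call that ended whichever 1 array was left out (adjusted p from 0.0874 to 0.154) and without a filter on dim probes (0.113). Wnt9a, a joint ligand, and Wnt11, which guides kidney branching, were not called (differences 0.16 ± 0.08 and 0.30 ± 0.19), although Wnt11 was called without either Gadd45a array (0.55, adjusted p = 0.0453). The ligands Wnt1, Wnt3, Wnt3a, Wnt8a, Wnt8b and Wnt9b were not well above background on any array, and Wnt2b was so on the Flag replicate 2 array alone (20.8). These 7 genes were not tested, and their levels have only an upper bound here.

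**Figure D2:**
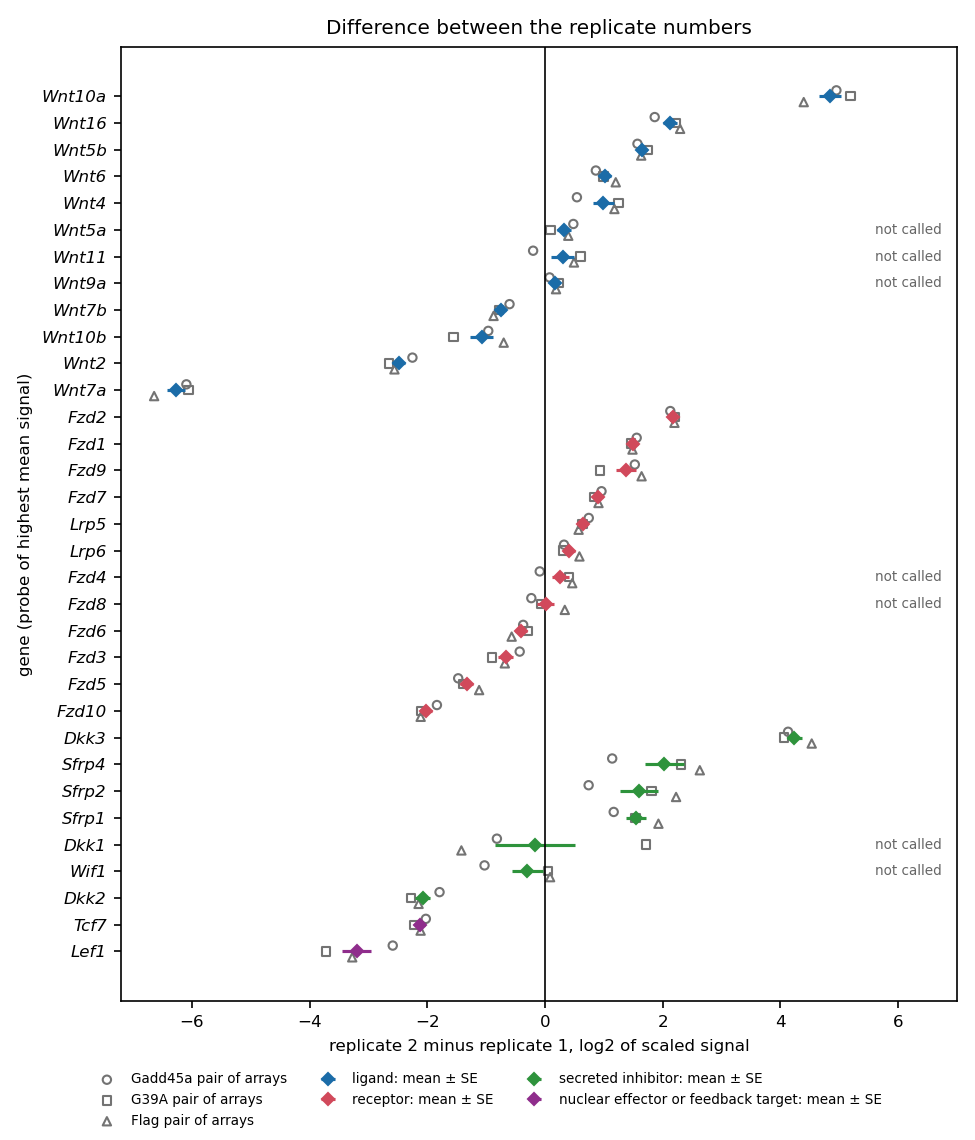
Difference between replicate 2 and replicate 1 (log2 of scaled signal) for the 33 genes with a tested probe, taken at the probe of highest mean signal; diamonds and bars are the mean and SE over the 3 pairs of arrays, and open symbols are the pairs. The 3 pairs lie close together for most genes and spread most for Dkk1, Sfrp2 and Sfrp4; Wnt7a (dim in replicate 2) marks the low end and Wnt10a the high end.

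All 12 receptor genes had a tested probe. Of the 19 probes 8 were higher and 8 lower in replicate 2, against 29.3% and 23.7% of all probes. Fzd1, Fzd2 and Fzd7, close relatives that form a Frizzled subfamily, were all higher. Fzd2 gave 15329, 16175 and 17433 on the replicate 2 arrays against 3506, 3509.6 and 3798 on the replicate 1 arrays (2.18 ± 0.08, 4.52-fold, limma adjusted p = 0.000326), and its second probe rose by 1.82 ± 0.14. Fzd1 gave 9935, 10689 and 11011 in replicate 2 and 3377, 3883 and 3932 in replicate 1 (1.50 ± 0.08, adjusted p = 0.000653). Fzd7 gave 1575, 1666 and 1717 in replicate 2 and 809.99, 935 and 915 in replicate 1 (0.90 ± 0.08, adjusted p = 0.00225), and its second probe was also higher (0.75 ± 0.15), a call lost without either Gadd45a or either G39A array (adjusted p up to 0.0894) and without a filter (0.0507). With normexp that difference was 0.45. No array of replicate 2 fell into the replicate 1 range at any of these probes.

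Fzd5 and Fzd10 were the receptors that fell most. Fzd5, known from eye and placenta, gave 262, 262 and 326 in replicate 2 and 728, 692 and 708 in replicate 1 (-1.33 ± 0.11, limma adjusted p = 0.00176), with -0.90 ± 0.11 at its second probe. Fzd10 gave 18.2, 19.3 and 19.3 in replicate 2, where it was well above background on the Flag array alone, and 65.0, 83.0 and 83.7 in replicate 1 (-2.02 ± 0.10, adjusted p = 0.00057). Fzd9, in the same Frizzled subfamily as Fzd10, went the opposite way. It gave 70.5, 47.0 and 60.2 in replicate 2 and 24.5, 24.5 and 19.3 in replicate 1, where it was well above background on the G39A array alone (1.37 ± 0.17, adjusted p = 0.00527). With normexp the differences were -0.76 for Fzd10, 0.60 for Fzd9 and -0.24 for the second Fzd5 probe. The Fzd9 and Fzd10 probes passed the filter mainly through their brighter number, which favours a difference.

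Fzd3 and Fzd6, which act in planar cell polarity, were slightly lower. The brightest of the 3 Fzd3 probes gave 108, 112 and 123 in replicate 2 and 146, 208 and 197 in replicate 1 (-0.67 ± 0.12, limma adjusted p = 0.0144), and the others fell by 0.66 and 0.54. Of the 3 probes, that with a fall of 0.66 kept its call whichever 1 array was left out, while the others lost it in some (adjusted p up to 0.0692). With normexp that probe stood at -0.32, and the probe with a fall of 0.54 was not called (-0.17, adjusted p = 0.103). Fzd6 fell by 0.41 (adjusted p = 0.0287, 0.0701 to 0.102 without 1 array and 0.0859 without a filter). Fzd4, the receptor of Norrin in retinal vessels, and Fzd8 were not called.

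The coreceptors gave a mixed picture. Lrp5 gave 1176, 1070.2 and 1108 in replicate 2 and 703, 689 and 746 in replicate 1, a modest rise (0.65 ± 0.08, limma adjusted p = 0.00588). For Lrp6 the probes disagreed in sign. The brighter one (chromosome 6, 134400356 to 134400415, mm9, starting at base 5446 of its transcript) gave 422, 432 and 517 in replicate 2 and 337, 349 and 345 in replicate 1 (0.40 ± 0.10). The other (chromosome 6, 134491492 to 134491551, starting at base 181) gave 39.2, 45.6 and 54.8 in replicate 2 and 59.2, 73.0 and 63.6 in replicate 1 (-0.50 ± 0.13). Both were called (adjusted p = 0.0318 and 0.0352), and the first lost its call whichever 1 array was left out (up to 0.105), the second without either Gadd45a or either G39A array (up to 0.137). Neither was called without a filter (0.0917 and 0.0881), and the second was not called with normexp, quantile normalization or the deposited values (0.101, 0.0624 and 0.0632). Lrp6 as a gene therefore has no settled direction here.

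Among the secreted inhibitors, 5 of 9 tested probes were higher in replicate 2 and 1 was lower, against 29.3% and 23.7% of all probes. Dkk3, a divergent Dickkopf, gave 7011, 9502 and 10328 on the replicate 2 arrays against 401, 572 and 447 on the replicate 1 arrays (chromosome 7, 119260828 to 119260887, mm9). It was 18.9-fold higher (4.24 ± 0.13, limma adjusted p = 0.000273). Dkk2, which binds LRP5 and LRP6, moved the other way, at 3310.1, 2478 and 2537 in replicate 2 and 11472, 12064 and 11259 in replicate 1 (-2.08 ± 0.13, 4.21-fold lower, adjusted p = 0.000935). Thus these Dickkopf genes were both well above background on all 6 arrays and differed between the numbers in opposite directions, with no overlap of the arrays.

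Of the Frizzled-related inhibitors, which bind WNT proteins outside the cell, the members Sfrp1, Sfrp2 and Sfrp4 were higher. Frzb, a Frizzled-related gene counted with the other extracellular inhibitors below, was lower (-1.57 ± 0.09, limma adjusted p = 0.000784). Sfrp4 gave 6711, 10362 and 12522 in replicate 2 and 3044, 2083 and 2024 in replicate 1 (2.03 ± 0.33, limma adjusted p = 0.0104). Sfrp2 gave 1939.95, 4190.3 and 5309 in replicate 2 and 1161, 1195 and 1134 in replicate 1 (1.59 ± 0.32, adjusted p = 0.0188). Sfrp1 gave 13948, 24146 and 26859 in replicate 2 and 6214, 8307 and 7067 in replicate 1 (1.54 ± 0.17, adjusted p = 0.00391). At all 3 probes the replicate 2 arrays stood above every replicate 1 array, and the Gadd45a array was the lowest of replicate 2. The call of Sfrp4 ended without either G39A array (adjusted p = 0.0580), and that of Sfrp2 without either G39A (0.0886) or either Flag array (0.0695). A second, dimmer Sfrp1 probe overlapped between the numbers (1.41 ± 0.37, adjusted p = 0.0386, 0.0999 without either G39A array and 0.0779 without a filter), and its difference was 0.90 without either Flag array.

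Wif1, a ligand-binding inhibitor, gave 90.7, 128 and 159 in replicate 2 and 185, 124 and 150.03 in replicate 1, and was not called (-0.30 ± 0.27). Dkk1, the best studied Dickkopf and itself a known WNT target, varied between arrays. Its brighter probe gave 19.9, 71.0 and 19.4 in replicate 2 and 35.1, 21.6 and 52.0 in replicate 1, with both Gadd45a arrays not well above background (-0.17 ± 0.68). Its other probe was well above background on the Flag arrays alone (-1.36 ± 0.57). Neither was called, although both were without either G39A array (adjusted p = 0.0374 and 0.0114, differences -1.12 and -2.15). Dkk4 was not well above background on any array, and Sfrp5 was so on the G39A replicate 1 array alone (22.5). Neither of these was tested.

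Lef1 and Tcf7, the DNA-binding partners of β-catenin, were lower in replicate 2 at all 4 tested probes, against 23.7% of all probes. Of the 4, the dimmer Tcf7 probe passed the filter through replicate 1 alone. Lef1 gave 112, 56.2 and 81.3 on the replicate 2 arrays against 671, 744 and 788 on the replicate 1 arrays (-3.20 ± 0.25, 9.17-fold lower, limma adjusted p = 0.00154), and a second probe fell by 11.5-fold (adjusted p = 0.000388). Another Lef1 probe, placed elsewhere on chromosome 3, was not well above background on any array. Tcf7 gave 97.2, 78.8 and 88.9 in replicate 2 and 396, 369.96 and 385 in replicate 1 (-2.12 ± 0.09, 4.36-fold lower, adjusted p = 0.000405), and its second probe was at least 2.72-fold lower. With normexp the differences were -2.31 and -2.13 for Lef1 and -1.49 and -0.70 for Tcf7. Axin2, the feedback target, was well above background on the G39A replicate 1 array alone, at 42.3, and was not tested. These values give the levels of the messengers and no measure of pathway activity.

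Other genes of the pathway were counted from lists chosen by role, with earlier results of these data known. Each count stands beside 29.3% of all probes higher and 23.7% lower (52.9% called). Of 16 tested probes for ligand secretion, R-spondins and receptor turnover, 6 rose and 5 fell in replicate 2. Lgr6, an R-spondin receptor, gave 73.4, 51.1 and 58.8 in replicate 2 and 2959.7, 3766 and 4153 in replicate 1 (-5.89 ± 0.21, limma adjusted p = 0.000325), and Notum, which strips the lipid from WNT proteins, fell by 3.31. Rspo2, an R-spondin that enhances WNT signalling, gave 3117, 3629.9 and 2779 in replicate 2 and 122, 106 and 115 in replicate 1 (4.79 ± 0.13, adjusted p = 0.000256). The receptor-degrading ligase gene Rnf43 and the R-spondin gene Rspo1 rose by 2.69 and 2.14. Porcn, which adds the lipid to WNT proteins, fell by 0.64. Lgr6 and its relative Lgr5 differed in opposite directions, Lgr5 by 2.13 ± 0.11 (Lgr5 was chosen after its values were seen).

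Of 11 tested probes of other extracellular inhibitors, 7 were lower and 0 higher, against 23.7% and 29.3% of all probes. Sostdc1, an inhibitor of both WNT and BMP signals, gave 31.1, 29.1 and 27.4 in replicate 2 and 4366, 4693 and 4579 in replicate 1 (-7.28 ± 0.09, limma adjusted p = 0.000187). Dkkl1, a Dickkopf-like gene, fell by 3.82. Of the Sost probes 1 was not well above background on any array, and the other was so on the G39A and Flag replicate 1 arrays alone. That other probe is among the 7 lower, passed the filter through replicate 1 alone, and its value is a description. Of 15 probes of transcriptional targets, 4 rose and 6 fell, against 29.3% and 23.7% of all probes. Sp5, a target in many tissues, gave 7.83, 5.86 and 15.2 in replicate 2, not well above background, and 154, 145 and 191 in replicate 1, at least 7.83-fold lower. It too passed the filter through replicate 1 alone, and its value is a description. Ccnd1, the cyclin D1 gene, fell by 1.44. Wisp2 and Wisp1, WNT-induced secreted proteins, rose by 4.85 and 2.16.

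Of 37 probes of the destruction complex and Dishevelled, 10 rose and 1 fell (the largest called differences were 0.87 for Csnk1d and -0.52 for Apc), together 11 of 37 called against 52.9% of all probes. Of 18 probes of nuclear partners, 6 rose and 3 fell, a share near that over all probes. The corepressor genes Tle4 and Tle2 stood at -2.25 and 1.83, and the β-catenin inhibitor gene Ctnnbip1 at -2.13. Pygo1, among the rises, passed the filter through replicate 2 alone. Of 25 probes of alternative receptors and planar polarity, 8 rose and 5 fell, led by Celsr1 at -4.83 and Prickle1 at 2.92, both of the planar polarity system. The lower Celsr2 probes passed the filter through replicate 1 alone and a higher Ror2 probe through replicate 2 alone. Probes of these lists that entered through a single number had to differ, and their part in the counts is a description. The median differences of the lists were -0.26 (secretion, R-spondins and turnover), 0.20 (destruction complex), -1.57 (other inhibitors), 0.09 (nuclear partners), -0.18 (targets) and -0.04 (planar polarity), beside 0.09 over all probes.

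The series asks which genes Gadd45a regulates during reprogramming, with G39A as its negative mutant. No WNT gene was called in any comparison of the groups. In limma without a term for the replicate number 0 of 26481 probes passed for Gadd45a against Flag, for G39A against Flag or for Gadd45a against G39A (0% of all probes, lowest adjusted p 1.0 in each). At an unadjusted p under 0.05 there were 143, 122 and 172 probes in all, and 1, 0 and 0 among the 46 WNT probes. With the replicate number as a block 0 probes passed again (lowest adjusted p of a WNT probe 0.645, 0.997 and 0.647), with 3, 2 and 4 WNT probes at an unadjusted p under 0.05, among 1913, 741 and 2028 in all. The 3 comparisons share their arrays and are not separate evidence. Precision was low without the block, at a median SE of 0.345 over all probes, and 0.13 with it. With the slide as a random block 14 probes passed for Gadd45a against Flag (0.0529% of all), of which 0 were WNT probes.

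Fzd4 had the smallest p of the WNT probes in Gadd45a against Flag. It gave 467 in Gadd45a, 871 in G39A and 992 in Flag on the replicate 2 arrays (chromosome 7, 96557478 to 96557537, mm9). On the replicate 1 arrays it gave 497 in Gadd45a, 654 in G39A and 720.3 in Flag. Within both numbers the Gadd45a array was the dimmest, and the Gadd45a values of the numbers lay close together. The difference between Gadd45a and Flag was -0.81 ± 0.27 (SE, n = 2 per group, limma adjusted p = 1.0), with an SE of 0.18 and adjusted p = 0.645 under the replicate block. It was -1.09 within replicate 2 and -0.53 within replicate 1. Against G39A the Gadd45a difference was -0.65 ± 0.27 (limma adjusted p = 1.0, and 0.647 with the block). Fzd4 did not pass the test in either model.

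The other WNT probes of smallest p did not pass either. For Gadd45a against Flag these were the dimmer Dkk1 probe (-2.01 ± 1.06), Wnt9a (0.22 ± 0.19) and Wnt10b (0.73 ± 0.69, dim in replicate 2). The Dkk1 probe was well above background on the Flag arrays alone and passed the filter through them, so its values are a description. Wnt9a gave 810.2 in Gadd45a, 707 in G39A and 722 in Flag on the replicate 2 arrays. On the replicate 1 arrays it gave 768 in Gadd45a, 604 in G39A and 634 in Flag. For G39A against Flag they were the same Dkk1 probe (-1.94 ± 1.06), an Fzd3 probe (-0.54 ± 0.36), an Fzd8 probe (0.42 ± 0.40) and the dimmer Fzd7 probe (-0.50 ± 0.50). That Fzd3 probe gave 50.01 in Gadd45a, 34.9 in G39A and 53.0 in Flag on the replicate 2 arrays, and 75.04, 52.2 and 72.4 in the same order on the replicate 1 arrays. G39A was thus the dimmest of the 3 groups at this probe in both numbers, and at 1 of the 2 other Fzd3 probes too. For Gadd45a against G39A they were Fzd4, the same Fzd3 probe (0.52 ± 0.36), Wnt9a (0.27 ± 0.19) and the other Fzd8 probe (-0.24 ± 0.22). These SE and ranks are from limma without the block, which leaves out the pairing of same-numbered arrays. With the block, Dkk3 (-0.48 ± 0.16) and the brighter Sfrp1 probe (-0.61 ± 0.21) also had a small p for Gadd45a against G39A. Their unadjusted limma p was 0.0392 and 0.0450, and neither passed (adjusted p = 0.647 for each). Dkk3 differed by -0.44 within replicate 2 and -0.51 within replicate 1, and Sfrp1 by -0.79 and -0.42.

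Within replicate 2, Sfrp1, Sfrp2 and Sfrp4 were dimmest on the Gadd45a array, which is 1 array against 1 and has no replicate check. The Gadd45a minus Flag difference within replicate 2 was -1.45 for Sfrp2, -0.95 for the brighter Sfrp1 probe, -1.45 for the dimmer one and -0.90 for Sfrp4. Within replicate 1 the same differences were 0.03, -0.19, 0.25 and 0.59. Differences of that size and direction were therefore not found in replicate 1. Of the 46 WNT probes, 4 were at least 2-fold lower in Gadd45a than in Flag within replicate 2 and 0 at least 2-fold higher, against 2.39% and 2.32% of all probes. They were Fzd4, Sfrp2, the dimmer Sfrp1 probe and the dimmer Dkk1 probe. That Dkk1 probe passed the filter through the Flag arrays alone, so its lower values in the other groups are a description. Within replicate 1, 1 was lower, the same Dkk1 probe, and 0 higher (1.70% and 1.22% of all probes). The G39A replicate 1 array lay on a slide of its own, so every G39A difference within replicate 1 is also one between slides. For G39A minus Flag, 0 were lower and 1 higher within replicate 2 (1.35% and 1.36% of all), and 2 lower and 0 higher within replicate 1 (2.08% and 1.74%). The 2 lower were the Dkk1 probes, and the 1 higher was the brighter of them. For Gadd45a minus G39A, 4 were lower and 0 higher within replicate 2 (1.75% and 1.98%), and 0 lower and 1 higher within replicate 1 (2.25% and 2.05%). The 4 lower were both Dkk1 probes, Sfrp2 and the dimmer Sfrp1 probe, and the 1 higher was the dimmer Dkk1 probe. That Dkk1 probe was not well above background on any Gadd45a or G39A array, and the brighter one on no Gadd45a array.

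**Figure D3:**
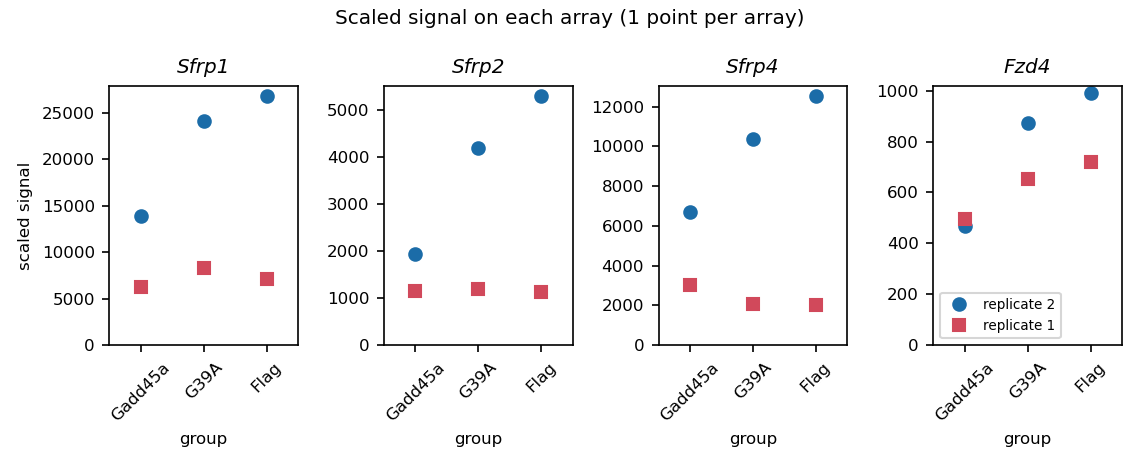
Scaled signal of Sfrp1, Sfrp2, Sfrp4 and Fzd4 (probe of highest mean signal) on the Gadd45a, G39A and Flag arrays, 1 point per array, circles for replicate 2 and squares for replicate 1, each axis starting at 0. On the replicate 2 arrays the Gadd45a point is the lowest in all 4 panels; on the replicate 1 arrays it is the lowest for Sfrp1 and Fzd4 and the highest for Sfrp4.

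Of the 46 WNT probes, 18 were lower and 8 higher in Gadd45a than in Flag within both numbers, and 20 differed in opposite directions. For G39A against Flag the counts were 18 lower, 5 higher and 23 opposite, and for Gadd45a against G39A 17 lower, 11 higher and 18 opposite. The share with the same direction in both numbers was 56.5%, 50% and 60.9% of the WNT probes, beside 55.3%, 47.8% and 59.0% of all probes, so the WNT probes kept direction about as often as probes at large. The median Gadd45a minus Flag difference was -0.14 within replicate 2 and -0.05 within replicate 1, beside -0.01 and -0.02 over all probes. None of the probes of the other pathway lists was called in any group comparison, with or without the replicate block.

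**Figure D4:**
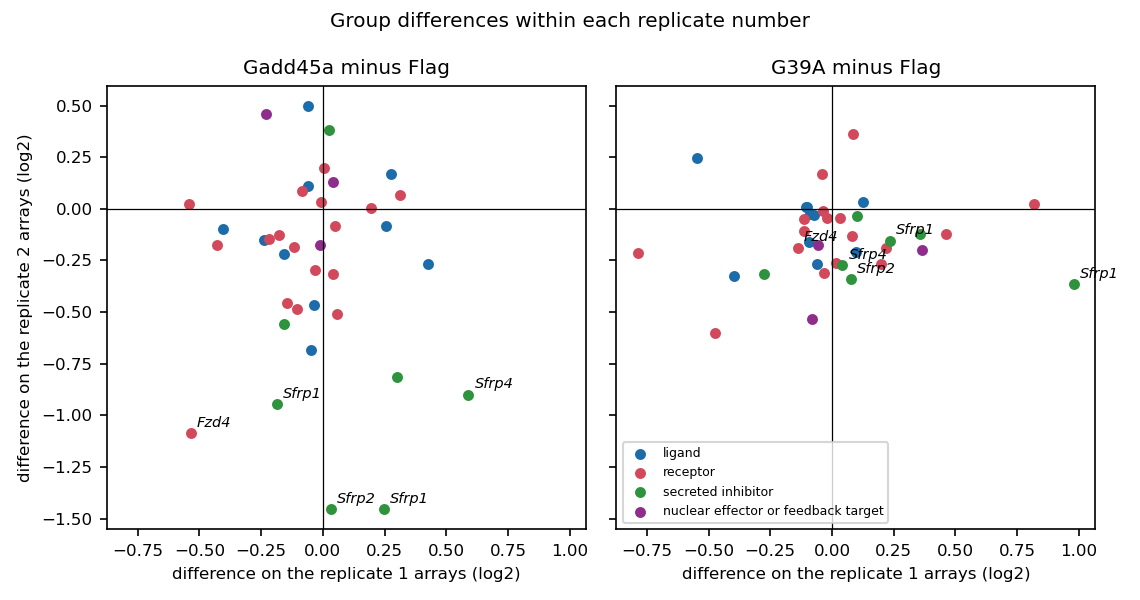
Difference within replicate 2 (vertical) against difference within replicate 1 (horizontal), both log2, for Gadd45a minus Flag (left) and G39A minus Flag (right), over the 37 WNT probes well above background on all 6 arrays; colours give the role. On the left Sfrp2 and the dimmer Sfrp1 probe stand at -1.45 within replicate 2 and at 0.03 and 0.25 within replicate 1, and Fzd4 is low within both. Each point rests on 1 array per group and number. On the right the replicate 1 difference is also one between slides.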

How the data were processed

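Cy3-labelled RNA of 6 MEF samples was hybridised to Agilent 1-colour arrays, 2 per group. Per the file headers, Agilent Feature Extraction (version 10.7 per the submitters' processing notes) made the deposited processed intensity of each spot, background-subtracted and detrended within the array, with surrogate values for dim spots, and not normalized between arrays. The authors' deposited value table holds log2 values that follow the scanner values of its own array (r of at least 0.9989, each column's median 6.17), so its direction is that of the signal. The sources used here do not give how it was made. Its medians lie well above 0, where a table centred by gene would have them near 0.

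Unmarked spots of each probe were averaged, and log2 intensities were centred on the 75th percentile of their array. Every probe was kept as a row. Tests used limma 3.58.1 in R 4.3.3 on 26481 probes well above background on at least 2 of 6 arrays, whatever the group, with an unmarked spot on every array, and Benjamini-Hochberg adjustment. The replicate comparison had a term for group (2 residual degrees of freedom), and the group comparisons had none (3). Where a probe was dim on all 3 arrays of a replicate number, a ratio is given as a lower bound: the mean of all 3 arrays of the brighter number over that of the dim ones, with each dim value raised, where lower, to its array's weakest signal well above background (17.6 to 33.9 scaled). Same-numbered arrays deviated together from their group means (correlations 0.906, 0.907 and 0.907 for the 3 pairs of groups). The numbers were therefore taken to pair the samples in the replicate comparison, the within-number differences and the block model. The group tests without the block leave that pairing out.

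Alternatives were normexp background correction (offset 50), quantile normalization, the deposited values, other filters, 1 probe per gene, slide as a block, the replicate number as a block, no group term, and leaving out each array. Values on every array are given for up to 24 member genes by size of the replicate difference and for the 4 probes of smallest p in each group comparison. Other pathway genes are named by size, up to 3 each way per list. The members, lists, naming rule and motif letters were chosen with earlier results of these data known. Probe positions are those of the array design (mm9, per the file headers), and promoters come from RefSeq (GRCm38.p6). Precision is limited by the number of arrays, and the median SE of a replicate difference was 0.107 (log2).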

Additional observations from a re-analysis of the deposited data

Results flagged for a closer look

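Differences between groups ran in opposite directions in the replicate numbers, by at least 0.5 on the log2 scale in each and with the 4 arrays involved well above background, at a probe of 2 WNT genes. Each rests on 1 array per group and number, and the difference between the numbers was not tested. The G39A differences within replicate 1 are also differences between slides, since that G39A array lay on a slide of its own. The Gadd45a minus Flag difference of Sfrp4 was -0.90 within replicate 2 and 0.59 within replicate 1. Its Gadd45a minus G39A difference was -0.63 within replicate 2 and 0.55 within replicate 1. These share the Gadd45a arrays and are not independent. The G39A minus Flag difference of the brighter Dkk1 probe was 1.87 within replicate 2 and -1.27 within replicate 1. That probe was dim, at 71.0 and 19.4 in G39A and Flag of replicate 2 and 21.6 and 52.0 in those of replicate 1. The other Dkk1 probe, not well above background on either G39A array, differed by -0.89 and -2.99, the same direction in both numbers. Sfrp4 thus stood lower in Gadd45a on the replicate 2 arrays and higher on the replicate 1 arrays. For Dkk1 the probes disagreed, and the gene has no settled pattern here.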

How the results depend on the processing

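Of the 37 WNT probes called between the replicate numbers, 24 kept their call and direction under each of the 14 alternatives in which they were tested, 12 lost it without at least 1 array, 9 under at least 1 other alternative, and 0 reversed. Of the 46 probes, 34 were called with normexp, 36 with quantile normalization or the deposited values, 36 with no group term and 28 to 31 without 1 array. The count was 31 of 61 without a filter, 31 of 37 for probes bright on all arrays and 26 of 33 with 1 probe per gene. Over all probes, 57.3% were called with normexp, 53.2% with quantile normalization or the deposited values and 26.5% without a filter. The share was 58.0% for probes bright on all arrays, 55.8% with 1 probe per gene and 56.0% with no group term. Without 1 array it was 36.3% to 37.9%. The probes called higher fell to 13 without either G39A array, and those called lower to 11 with 1 probe per gene, in which fewer probes were tested. Over all probes those higher fell from 7747 to 4972 of 26481 without either G39A array. Those lower were 4209 of 17063 with 1 probe per gene. Leaving out either array of a group gives the same replicate difference, since the remaining array then says nothing about the number. Among uncalled probes, the brighter Fzd8 probe ranged from -0.15 (without either Flag array, reversed) to 0.13 without 1 array. The brighter Dkk1 probe reversed to 0.11 with normexp and ranged from -1.12 to 0.45 without 1 array, reversed without either Gadd45a array (0.15) and either Flag array. Wif1 ranged from -0.49 to 0.065 (without either Gadd45a array, reversed), and the dimmer Fzd8 probe, as G39A minus Flag, from -0.090 (without G39A replicate 1, reversed) to 0.93. For these the cause was not tested.

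Group comparisons gave 0 called WNT probes under every alternative run, the replicate block and the slide as a fixed block (Gadd45a against Flag) included. The slide as a random block (correlation 0.897 in the group model) could not be fitted beside the group term in the replicate comparison. Without that term, an alternative chosen after seeing the data (correlation 0.0537), 36 WNT probes were called, beside 54.0% of all probes. The offset of normexp shrinks differences of dim probes by construction, so signal over background limits what can be said of dim probes of any role.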
